A study of Sus scrofa with 220 samples.

Results

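The inner cell mass (ICM) of the early blastocyst (EB) was compared with the hypoblast (HYPO) of the late blastocyst (LB) in the pig, over 24 cells labelled EB ICM and 36 cells labelled LB HYPO, 60 of the 220 single cells of the series. Cells were chosen by their deposited cell type label alone. The counts of cells that shared an embryo, read from the letters of the cell identifier, were added up, which gave 7 ICM sums and 5 HYPO sums. The ICM embryos AA, AC, AD, AE, AF, AG and AI gave 7, 6, 1, 2, 4, 3 and 1 cells, and the HYPO embryos AL, AM, AN, AO and AP gave 1, 14, 3, 16 and 2 cells. No embryo gave cells to both groups, so the p-values below measure the spread between embryo sums.

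All embryos came from artificially inseminated pigs, and the labels name no treatment or engineered allele for either group. Cells were picked by hand, and their polyadenylated RNA was amplified by Smart-seq2, a full-length single-cell method. Early blastocysts were dissociated after the zona pellucida was removed in acid, whereas late blastocysts first went through immunosurgery, in which antiserum and complement lyse the outer trophectoderm (TE). The study named cells from clustering and known lineage markers, so genes that mark hypoblast against epiblast (EPI), or ICM against TE, are not independent of the labels. By the study's own sexing from Y-linked expression, most EB ICM cells were male and most LB HYPO cells were female. The study proposes that X-linked dosage was not yet compensated in female late blastocysts. Stage, lineage, isolation method and the sex makeup of the embryos cannot be told apart between the groups.

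The inner cell mass is the group of cells inside the young blastocyst that gives rise to the epiblast, the source of the embryo proper, and to the hypoblast, the source of the yolk sac lining. Hypoblast cells form an epithelium, lay down a basement membrane under the epiblast, and make many secreted proteins that the liver also makes later. Factors of the GATA and HNF families mark the hypoblast, while factors such as KLF4 and KLF17 are known from early pluripotent cells.

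Total counts per cell ran from 1056123 to 5041162 in ICM and from 1049240 to 3750153 in HYPO, with a median of 5844 and 5604 genes detected per cell. The quasi-likelihood test of edgeR was run on 13437 genes over the 12 sums, and a gene was called at a Benjamini-Hochberg adjusted p under 0.05. Levels are CPM, counts scaled to a common library size with TMM factors. Fold changes are log2 of HYPO over ICM, with a standard error (SE). The SE was derived as the absolute fold change over the square root of the F statistic of the test. It thus restates the test and is not a separate estimate. Levels in LB EPI, EB TE and the hypoblast of spherical embryos (Sph HYPO) were scaled over all sums of the series and are given as descriptions. In such sums, fewer cells that express a gene and less of its RNA per cell cannot be told apart.

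In all, 332 genes differed between ICM and HYPO, 2.47% of those tested. The counts of called members in the gene lists below are to be set against this share. Of these, 186 (1.38% of those tested) were higher in HYPO and 146 (1.09%) were higher in ICM, and 242 had a gene symbol. The groups did not overlap in level for 557 genes (4.15%), of which 248 were called. Among the calls, 31 genes had no count in any ICM sum and 21 had none in any HYPO sum. The median fold change of all genes tested was 0.04. Without the HYPO embryo AM, 212 genes were called. Each cell's title holds a number, which was read here as that of its library pool, although the titles do not say so. The cells carry more than 2 such numbers, and these were cut here into a lower and a higher set. The cut was a choice of the re-analysis, so the 2 sets are not known to be separate batches. Within the lower-numbered pools (6 ICM and 5 HYPO sums) 218 genes were called, and within the higher-numbered pools (5 and 3 sums) 94. Of the 65 called genes followed by the naming rule, 43 were not called within the higher-numbered pools. Among the 22 that were are CLU, HABP2, LTA4H, DNAJB1, DNAJA1, HSP90B1, HSPH1, LIPH, SPIC, ERBB4, BAD, SLC39A8, COL4A2, ITGA5, ESRRG, KLF17, ROR1, SOAT1, CLDN6, HSPA5 and BAG3.

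**Figure D1:**
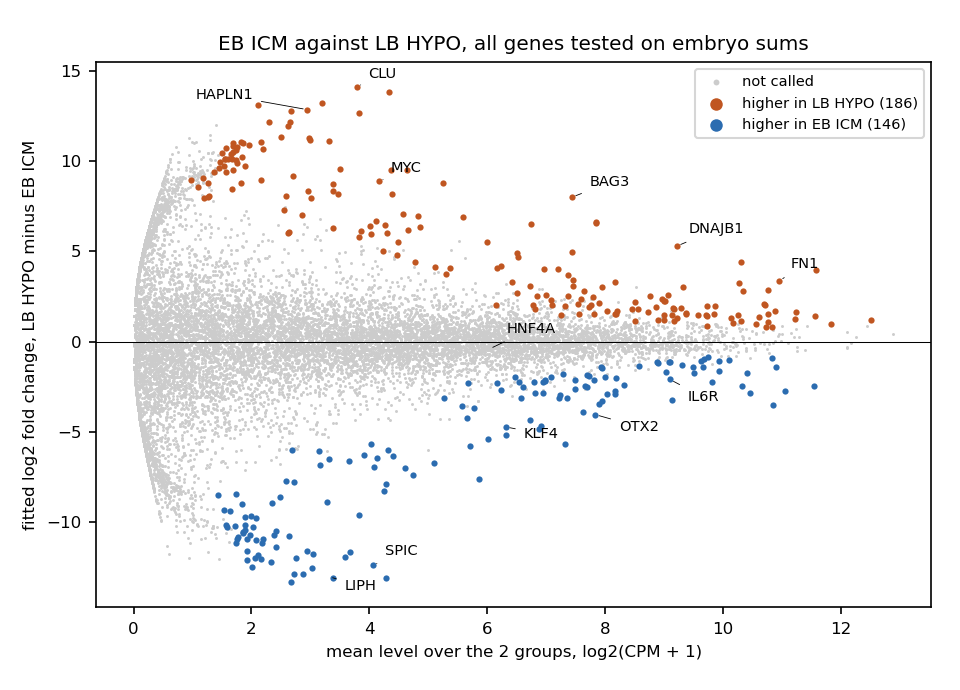
Fitted log2 fold change (HYPO minus ICM, vertical) of each of the 13437 genes tested against its mean level over both groups in log2(CPM + 1) (horizontal). The 186 genes called higher in HYPO lie above 0, the 146 called higher in ICM lie below, and HNF4A sits near 0 at -0.42.

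Of the 4 genes that mark the comparison, KLF4 and IL6R were higher in ICM, FN1 was higher in HYPO, and HNF4A was not called. KLF4, a zinc finger factor of the pluripotency network, ran from 160.1 to 1914 CPM in ICM (median 427). In the HYPO embryos AL, AM, AN, AO and AP it stood at 31.7, 33.6, 0, 9.86 and 39.4 CPM. Every HYPO sum lay below every ICM sum (log2 fold change -4.73, SE 0.98, adjusted p = 0.0128). The median of KLF4 was 44 CPM in LB EPI and 0.526 CPM in Sph HYPO.

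IL6R, the ligand-binding receptor of interleukin 6, ran from 607 to 2805 CPM in ICM (median 1009) and stood at 252, 165, 366, 388 and 274 CPM in HYPO AL to AP. The groups did not overlap (log2 fold change -2.09, SE 0.39, adjusted p = 0.00626). Its median was 4.29 CPM in LB EPI and 157 CPM in Sph HYPO.

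FN1 encodes fibronectin, a matrix glycoprotein bound by integrins. It ran from 168 to 2131 CPM in ICM (median 606) and stood at 5921, 5938, 10509, 4060.2 and 12425 CPM in HYPO AL to AP. Every HYPO sum exceeded every ICM sum (log2 fold change 3.37, SE 0.50, adjusted p = 0.00105). The median was 82.8 CPM in LB EPI and 12390 CPM in Sph HYPO, so both hypoblast groups held high levels. The call of KLF4 was lost with sums of at least 2 cells. The calls of KLF4, IL6R and FN1 were lost in a single model over all 7 lineages.

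HNF4A, a nuclear receptor of endoderm and liver, overlapped between the groups. It ran from 6.62 to 320 CPM in ICM (median 93.6) and stood at 269.6, 70.2, 21.9, 34.4 and 47.3 CPM in HYPO AL to AP (log2 fold change -0.42, SE 0.83, adjusted p = 0.856). All 12 sums held HNF4A counts, while it was at 0 in all LB EPI sums.

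**Figure D2:**
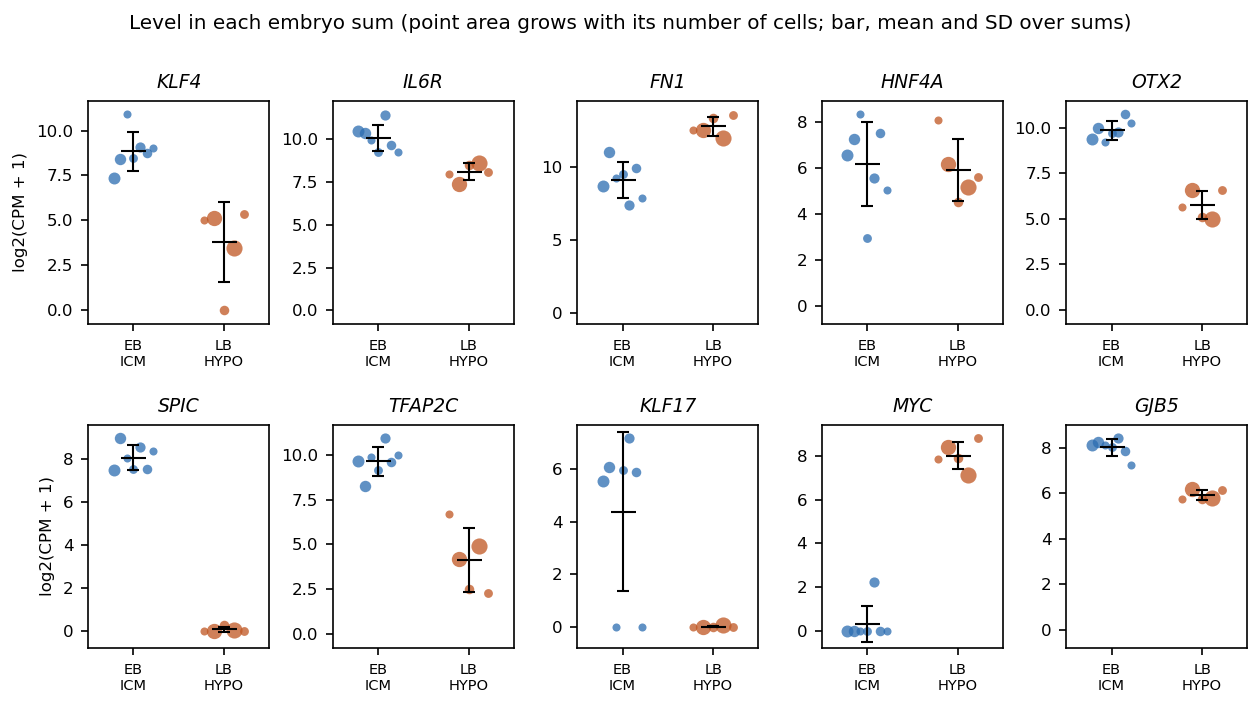
Level in log2(CPM + 1) (vertical) of 10 genes in each of 7 EB ICM and 5 LB HYPO embryo sums (horizontal); point area grows with the number of cells, and bars give the mean and SD over sums. KLF4, IL6R, OTX2, SPIC, TFAP2C and GJB5 are lower in every HYPO sum, FN1 and MYC are higher, and HNF4A overlaps.

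Factors of naive pluripotency and the early embryo lay on the ICM side. Of 11 members tested, 5 were called higher in ICM and 0 higher in HYPO. None of the 11 fold changes was positive, and their median was -3.02 against 0.04 over all genes. SPIC, an ETS-family factor, ran from 174 to 495 CPM in ICM (median 261) and stood at 0, 0, 0.224, 0.039 and 0 CPM in HYPO AL to AP. It had 15972 counts in ICM and 2 in HYPO, a ratio of 8725 (95% counting interval 2415 to 72050), with an adjusted p of 8.63e-07 in edgeR.

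TFAP2C, an AP-2 factor of early embryo, trophectoderm and germ cells, ran from 304 to 1940 CPM in ICM (median 803) and from 3.92 to 103 CPM in HYPO (median 17.2), without overlap (log2 fold change -4.86, SE 0.80, adjusted p = 0.00225). ESRRG, an oestrogen-related orphan receptor, ran from 78.7 to 254 CPM in ICM (median 159) and from 0 to 6.77 CPM in HYPO (median 0), again without overlap (log2 fold change -6.44, SE 1.23, adjusted p = 0.0076). KLF17, a factor of the early embryo, had 3749 counts in ICM and 1 in HYPO, a ratio of 4096 (95% counting interval 735 to 161800). Its levels ran from 0 to 144 CPM in ICM (median 57.4), so the groups met at 0. Its edgeR adjusted p was 0.0109, and 0.0611 without AO. The calls of ESRRG and KLF17 were lost within the lower-numbered pools. The call of KLF17 was lost with limma on log2(TPM + 1) and with limma on log2(TPM + 0.1).

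The other 6 members, STAT3, ESRRB, TBX3, NR5A2, TET1 and DPPA5, did not pass. STAT3, the transcription factor downstream of interleukin 6 family receptors, ran from 104 to 932 CPM in ICM (median 570.4) and from 0 to 195 CPM in HYPO (median 37.9), with overlap (log2 fold change -3.02, SE 1.11, adjusted p = 0.143). In LB EPI the medians of KLF17 and TFAP2C were 45.8 and 419 CPM, and in Sph HYPO they were 0 and 0.183 CPM. The other called members were also lower in LB EPI than in ICM. LB EPI medians of KLF4, SPIC and ESRRG were 44, 3.74 and 8.7 CPM, against ICM medians of 427, 261 and 159 CPM. No entry was matched to NANOG or SOX2.

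Of 14 epiblast and primed pluripotency genes, 1 was called higher in ICM and 0 higher in HYPO, and the median fold change was -1.54. For the epiblast list, DESeq2 gave 1 call higher in HYPO and 1 higher in ICM, and limma gave 1 and 0 with either pseudocount (1 or 0.1). PRDM14, an epiblast factor, had a median of 0 CPM in ICM and in HYPO, and of 65 CPM in LB EPI.

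Of 16 hypoblast and endoderm transcription factors, OTX2 was called, higher in ICM, and 0 were called higher in HYPO. The median fold change of the list was -1.085, and 5 members were positive. Its summed level, which includes OTX2, was 891 to 2128 CPM in ICM and 140 to 447 CPM in HYPO. For this list, DESeq2 gave 0 calls higher in HYPO and 2 higher in ICM, as did limma with either pseudocount (1 or 0.1). OTX2, a homeobox factor of early endoderm and head, ran from 596 to 1718 CPM in ICM (median 879.5) and stood at 49.2, 94.4, 33.1, 31.4 and 94.8 CPM in HYPO AL to AP. Every HYPO sum was below every ICM sum (log2 fold change -4.04, SE 0.42, adjusted p = 2.75e-05). The call of OTX2 was lost in a single model over all 7 lineages.

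Of the other members, FOXA2 and EOMES had no ICM count, PROX1 and ISL1 had no HYPO count, and none of these 4 was called. GATA6 and GATA4, early hypoblast factors, had counts in both groups. GATA6 ran from 82.6 to 305 CPM in ICM (median 152) and from 0 to 201 CPM in HYPO, median 52.8 (log2 fold change -0.87, SE 0.88, adjusted p = 0.646). GATA4 had counts in 3 of 7 ICM sums and in 5 of 5 HYPO sums, with levels of 0 to 7.72 CPM in ICM (median 0) and 7.38 to 17.1 CPM in HYPO, median 9.79 (log2 fold change 2.23, SE 1.73, adjusted p = 0.52). PDGFRA, a receptor that marks primitive endoderm, had medians of 181 and 194 CPM (log2 fold change 0.91, SE 0.91, adjusted p = 0.641). Of the hypoblast markers, GATA4, PDGFRA and NID2 thus had counts in all 5 HYPO sums and GATA6 in 4, while no entry was matched to SOX17.

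Secreted proteins known from the liver included 1 call among 20 tested, with 13 positive fold changes and a median of 2.40. For the secreted protein list, DESeq2 gave 3 calls higher in HYPO and 1 higher in ICM, and limma gave 6 and 0 with either pseudocount (1 or 0.1). The call was APOE, the lipid carrier apolipoprotein E. It ran from 0 to 21.7 CPM in ICM (median 0) and stood at 33.4, 507.96, 726, 407 and 178 CPM in HYPO AL to AP. The groups did not overlap (log2 fold change 6.18, SE 1.53, adjusted p = 0.0414), but the adjusted p was 0.0526 to 0.0876 with any sum other than AC or AL left out. The call of APOE was lost with sums of at least 2 cells.

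Further members had groups that did not overlap and an adjusted p above the threshold. APOA1 and APOC3, both apolipoproteins, had log2 fold changes of 6.24 (SE 1.72, adjusted p = 0.0697) and 3.19 (SE 1.08, adjusted p = 0.133). MTTP, which loads lipid onto lipoproteins, had medians of 0 and 299 CPM (log2 fold change 5.05, SE 1.60, adjusted p = 0.118). FETUB, a protease inhibitor of the fetuin family, had medians of 0 and 139 CPM (log2 fold change 4.06, SE 1.65, adjusted p = 0.159).

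Among 21 endocytic and lysosomal genes, 2 were called higher in HYPO and 2 higher in ICM. SLC39A8, a zinc and manganese importer, ran from 0 to 0.55 CPM in ICM (median 0) and stood at 129, 101, 107, 54.7 and 0 CPM in HYPO AL to AP. HYPO AP was at the ICM level, and the other 4 HYPO sums were above it (log2 fold change 9.15, SE 1.74, adjusted p = 0.00736). The lysosomal protease gene CTSB rose from a median of 182 to 502.6 CPM (log2 fold change 1.51, SE 0.34, adjusted p = 0.024). The protease gene CTSL fell from 173 to 0 CPM (log2 fold change -6.00, SE 1.52, adjusted p = 0.0471).

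Leaving out sums moved the adjusted p of CTSB to 0.0507 to 0.0686 without AA, AL, AM, AN or AO, and that of CTSL to 0.0539 to 0.0887 with any sum other than AO left out. The calls of SLC39A8 and CTSB were lost with limma on log2(TPM + 1) and with limma on log2(TPM + 0.1). The calls of CTSB and CTSL were lost in a single model over all 7 lineages. The call of CTSB was lost without scaling factors and within the lower-numbered pools. The call of CTSL was lost with sums of at least 2 cells.

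Of 30 basement membrane and matrix genes tested, 8 were called higher in HYPO and 0 higher in ICM, and 28 had a positive fold change. The median was 4.801, or 3.43 with genes that had no count in a group put at their bound. The count was 5 without AA, AF, AG, AL, AM, AO or AP, and 2 within the higher-numbered pools. For the matrix list, DESeq2 gave 11 calls higher in HYPO and 0 higher in ICM, and limma gave 10 and 0 on log2(TPM + 1) and 9 and 0 on log2(TPM + 0.1).

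COL4A2, a chain of basement membrane collagen, ran from 0 to 0.55 CPM in ICM (median 0.422) and stood at 60.2, 97.8, 263, 50.8 and 57.9 CPM in HYPO AL to AP. All HYPO sums were above all ICM sums (log2 fold change 8.32, SE 1.15, adjusted p = 0.000448). NID1, which links laminin to collagen, ran from 0 to 10 CPM in ICM (median 0.901) and from 99.7 to 319.9 CPM in HYPO, median 200.3 (log2 fold change 6.45, SE 1.21, adjusted p = 0.00662). Its relative NID2 ran from 0 to 13.8 CPM in ICM (median 0) and from 72.9 to 373 CPM in HYPO, median 176 (log2 fold change 6.42, SE 1.59, adjusted p = 0.0414). None of these 3 overlapped between the groups.

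HAPLN1 encodes a link protein that joins hyaluronan to proteoglycans. It had no count in any ICM sum and stood at 216, 24.1, 80.9, 153 and 9.79 CPM in HYPO AL to AP, at least 1606-fold higher against a floor of 3 counts over the ICM group (adjusted p = 0.00146, edgeR). The laminin chain LAMA1 also had no ICM count and ran from 12.1 to 34.1 CPM in HYPO (median 19.7), at least 437.5-fold higher (adjusted p = 0.011, edgeR). SPARC, a matricellular glycoprotein, had no ICM count and ran from 0.447 to 21.9 CPM in HYPO (median 7.83), at least 216-fold higher (adjusted p = 0.0376, edgeR). FBLN1, the matrix glycoprotein fibulin, ran from 0 to 8.98 CPM in ICM (median 0) and from 71.6 to 281 CPM in HYPO, median 126 (log2 fold change 5.96, SE 1.53, adjusted p = 0.0493).

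The adjusted p of NID2 was 0.053 to 0.0966 with any sum other than AE left out, that of SPARC 0.0557 to 0.0902 with any sum other than AD, AI or AN left out, and that of FBLN1 0.0549 to 0.104 with any sum other than AC left out. The calls of NID2, SPARC and FBLN1 were lost with sums of at least 2 cells. The calls of NID2, LAMA1, SPARC and FBLN1 were lost within the higher-numbered pools. The call of HAPLN1 was lost with limma on log2(TPM + 1) and with limma on log2(TPM + 0.1). The calls of LAMA1, SPARC and FBLN1 were lost within the lower-numbered pools. The call of FBLN1 was lost without scaling factors. The laminin genes LAMB1 and LAMC1 had groups that did not overlap and did not pass. LAMB1 had medians of 248 and 1752 CPM (log2 fold change 3.01, SE 0.81, adjusted p = 0.0641), and LAMC1 of 0 and 545 CPM (log2 fold change 5.09, SE 1.51, adjusted p = 0.0964).

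The summed level of the matrix list was 874 to 3197 CPM in ICM, 7198 to 16570 CPM in LB HYPO, 485 to 784 CPM in LB EPI and 8423 to 20230 CPM in Sph HYPO. Every LB EPI sum lay below every ICM sum by this measure. HAPLN1 had a median of 0 CPM in LB EPI and 849 CPM in Sph HYPO, and COL4A2 had 8.65 and 77 CPM.

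**Figure D3:**
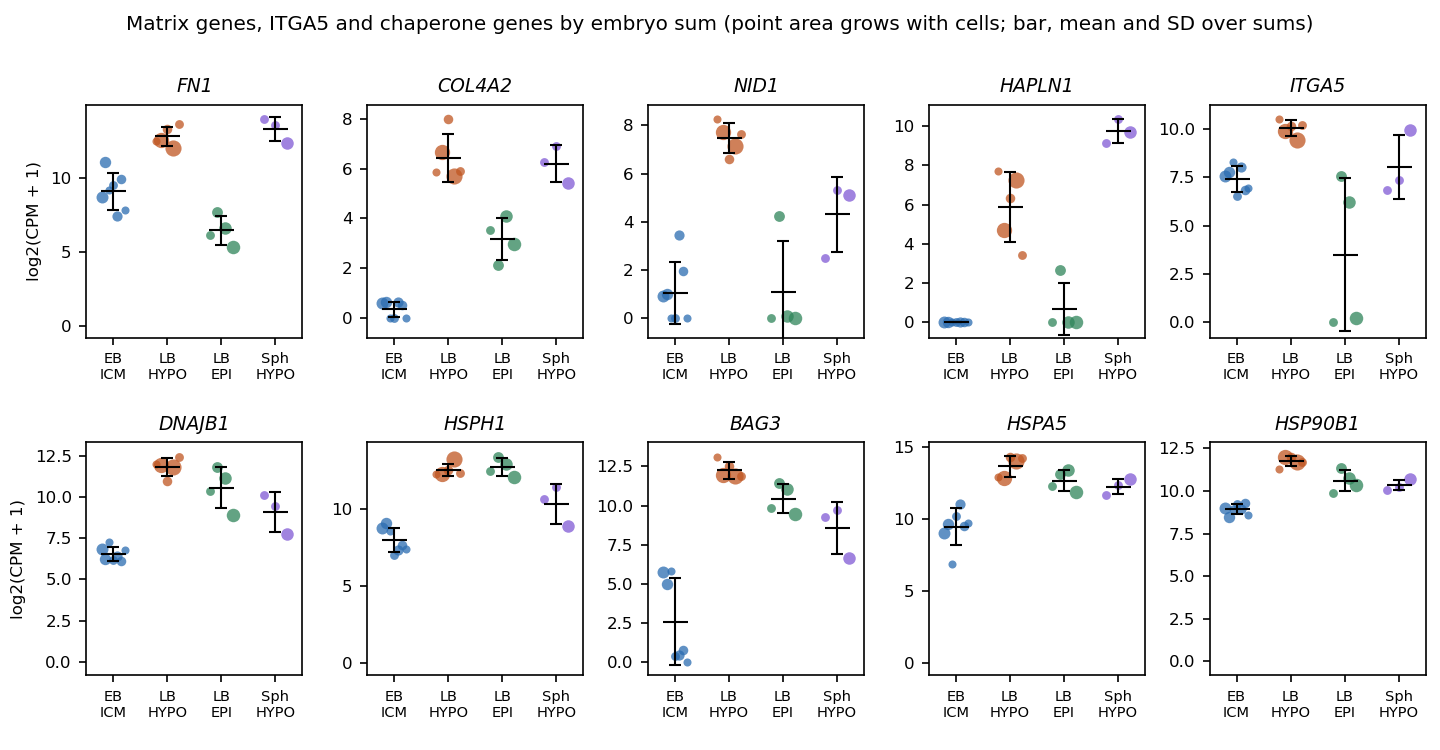
Level in log2(CPM + 1) (vertical), scaled over all sums, of 5 matrix or integrin genes and 5 chaperone genes in sums of EB ICM, LB HYPO, LB EPI and Sph HYPO (horizontal); point area grows with the number of cells, and bars give the mean and SD. FN1, COL4A2 and HAPLN1 are higher in both hypoblast groups than in LB EPI, while the chaperone genes are on average above EB ICM in the other 3 groups.

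Of 14 integrin and focal adhesion genes, 4 were called higher in HYPO and 1 higher in ICM. ITGA5, a subunit of the fibronectin receptor, ran from 94.1 to 329 CPM in ICM (median 189.8) and stood at 1527, 929, 1199.9, 693 and 1197 CPM in HYPO AL to AP. The groups did not overlap (log2 fold change 2.54, SE 0.33, adjusted p = 0.000274). Its partner ITGB1 rose from a median of 771 to 1953 CPM (log2 fold change 1.49, SE 0.27, adjusted p = 0.00577). The focal adhesion genes VCL and ILK had log2 fold changes of 2.54 (SE 0.58, adjusted p = 0.0249) and 1.53 (SE 0.38, adjusted p = 0.0401). ITGA4, an integrin chain that also binds fibronectin, ran from 0 to 349.6 CPM in ICM (median 20.9) and had 2711 counts in ICM and 1 in HYPO, a ratio of 2962 (95% counting interval 531 to 117000) with an adjusted p of 0.0471 in edgeR.

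With sums left out, the adjusted p of VCL was 0.0605 to 0.0876 without AG, AM or AN, that of ILK 0.0503 to 0.0912 with any sum other than AE left out, and that of ITGA4 0.0635 to 0.116 with any sum other than AE, AF or AI left out. The calls of ITGA5, VCL and ILK were lost in a single model over all 7 lineages. The calls of ITGB1 and ITGA4 were lost within the lower-numbered pools. The calls of VCL, ILK and ITGA4 were lost with sums of at least 2 cells. The calls of VCL and ITGA4 were lost with limma on log2(TPM + 1) and with limma on log2(TPM + 0.1). The call of ILK was lost without scaling factors.

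Of 34 adhesion and junction genes, 4 were called higher in HYPO and 1 higher in ICM. KRT8, an epithelial keratin, ran from 101 to 412 CPM in ICM (median 206) and stood at 1238, 2232, 2281, 2039 and 1932 CPM in HYPO AL to AP. All HYPO sums were higher (log2 fold change 3.01, SE 0.33, adjusted p = 5.32e-05). CLDN6, a tight junction claudin, ran from 90.9 to 436 CPM in ICM (median 265) and from 862 to 2183 CPM in HYPO, median 1165 (log2 fold change 2.56, SE 0.35, adjusted p = 0.000454). OCLN, the tight junction protein occludin, ran from 0.482 to 307 CPM in ICM (median 116) and from 1194 to 1558 CPM in HYPO, median 1412 (log2 fold change 3.33, SE 0.78, adjusted p = 0.0321). For OCLN the adjusted p was 0.0509 to 0.0629 with any sum other than AC, AE or AI left out.

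The connexins GJB5 and GJA1, which form gap junctions, differed in opposite directions. GJB5 ran from 152 to 344 CPM in ICM (median 278) and from 52.5 to 72.3 CPM in HYPO, median 54.3 (log2 fold change -2.13, SE 0.38, adjusted p = 0.00385). GJA1 had no ICM count and ran from 0.559 to 44.5 CPM in HYPO (median 27.8), at least 354.2-fold higher (adjusted p = 0.0182, edgeR). In LB EPI the medians of KRT8 and GJA1 were 2058 and 92 CPM. The calls of OCLN, GJB5 and GJA1 were lost within the lower-numbered pools. The call of GJB5 was lost in a single model over all 7 lineages. The calls of GJB5 and GJA1 were lost with limma on log2(TPM + 0.1). The call of GJA1 was lost with sums of at least 2 cells and with limma on log2(TPM + 1). For the junction list, DESeq2 gave 8 calls higher in HYPO and 1 higher in ICM, and limma gave 7 and 2 on log2(TPM + 1) and 7 and 1 on log2(TPM + 0.1).

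**Figure D4:**
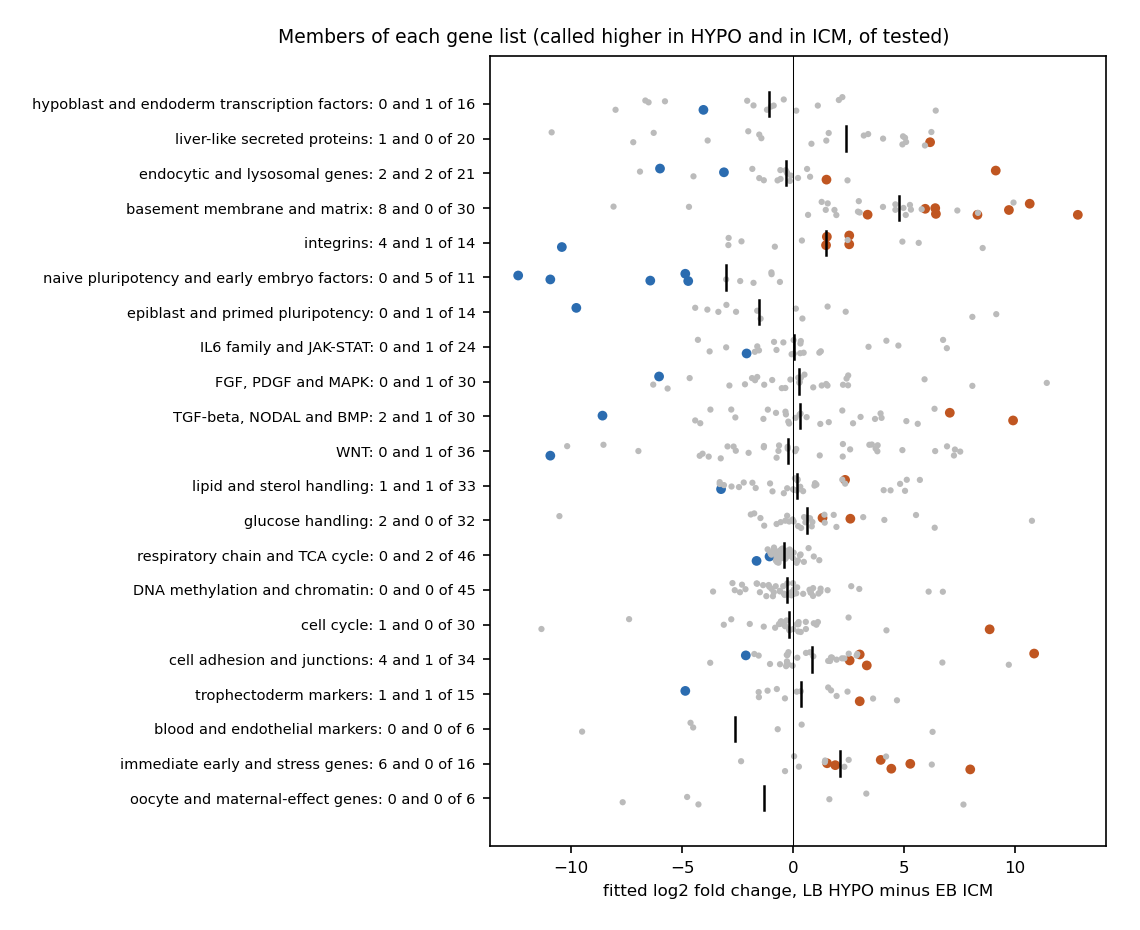
Fitted log2 fold change (HYPO minus ICM, horizontal) of the tested members of the gene lists (vertical), with called members coloured, other members grey and the median of each list as a bar. The matrix list has 8 members called higher in HYPO and the naive pluripotency list has 5 called higher in ICM.

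The medians of the signalling lists lay between -0.24 and 0.32. The shares called were 4.17% for the interleukin 6 list, 3.33% for the FGF list, 10% for the TGF-beta list and 2.78% for the WNT list. Over all genes tested the share was 2.47%. Of 24 genes of the interleukin 6 family and JAK-STAT pathway, IL6R was the call by edgeR. For the interleukin 6 list, DESeq2 gave 2 calls higher in HYPO and 3 higher in ICM, and limma gave 0 and 4 with either pseudocount (1 or 0.1). The shared signal-transducing receptor gene IL6ST had medians of 370.2 and 123 CPM (log2 fold change -1.61, SE 0.84, adjusted p = 0.253). LIFR, the leukaemia inhibitory factor receptor, had medians of 7.88 and 25.3 CPM (log2 fold change 0.03, SE 1.27, adjusted p = 0.995).

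Of 30 FGF, PDGF and MAPK genes, ETV1 was called, higher in ICM. Without HYPO AP, and in a single model over all 7 lineages, 1 other member was called higher in HYPO and 0 higher in ICM. ETV1, an ETS factor and known target of FGF signalling, ran from 8.29 to 123 CPM in ICM (median 80.9) and stood at 0, 0.656, 0, 4.09 and 0 CPM in HYPO AL to AP. The groups did not overlap (log2 fold change -6.04, SE 1.48, adjusted p = 0.0398), but the adjusted p was 0.051 to 0.0998 with any sum other than AF or AO left out. The call of ETV1 was lost with sums of at least 2 cells, in a single model over all 7 lineages and within the lower-numbered pools.

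Of 30 TGF-beta, NODAL and BMP genes, 2 were called higher in HYPO and 1 higher in ICM. ID2, a target of BMP signalling that blocks helix-loop-helix factors, ran from 0 to 17.9 CPM in ICM (median 0.0693) and stood at 1667, 195, 105, 122 and 340.5 CPM in HYPO AL to AP. The single cell of AL was the highest of the HYPO sums, all of which were above ICM (log2 fold change 7.07, SE 1.52, adjusted p = 0.0171), and the adjusted p was 0.0765 without AL. ENG, a co-receptor for TGF-beta ligands, had no ICM count and ran from 0.354 to 34.5 CPM in HYPO (median 13.9), at least 146.2-fold higher (adjusted p = 0.0419, edgeR). Its adjusted p was 0.0506 to 0.089 with any of the 12 sums left out. CHRD, a secreted BMP antagonist, ran from 0 to 105 CPM in ICM (median 53.4) and from 0 to 0.354 CPM in HYPO (median 0), meeting at 0 (log2 fold change -8.60, SE 1.85, adjusted p = 0.0173). Its adjusted p was 0.0586 without AM. The calls of ID2, ENG and CHRD were lost with sums of at least 2 cells. The calls of ENG and CHRD were lost with limma on log2(TPM + 1), with limma on log2(TPM + 0.1) and within the lower-numbered pools. The call of CHRD was lost in a single model over all 7 lineages. For the TGF-beta list, DESeq2 gave 4 calls higher in HYPO and 1 higher in ICM, and limma gave 2 and 1 with either pseudocount (1 or 0.1).

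Of 36 WNT genes, the receptor ROR1 was called, higher in ICM, a share near that over all genes (2.78% against 2.47%). It ran from 0 to 66.8 CPM in ICM (median 21.5) and had no HYPO count, at least 726.1-fold lower in HYPO (adjusted p = 0.0473, edgeR). The groups met at 0, and the adjusted p was 0.0675 to 0.103 with any sum other than AD or AI left out. The call of ROR1 was lost in a single model over all 7 lineages, with limma on log2(TPM + 1), with limma on log2(TPM + 0.1) and within the lower-numbered pools. For the WNT list, DESeq2 gave 3 calls higher in HYPO and 4 higher in ICM, and limma gave 2 and 0 with either pseudocount (1 or 0.1). In a single model over all 7 lineages 2 members were called higher in HYPO and 0 higher in ICM, and without ICM AC 1 and 0.

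Of 16 immediate early and stress genes, 6 were called higher in HYPO and 0 higher in ICM, with a median fold change of 2.11. The calls were heat shock and endoplasmic reticulum chaperones and their partners. DNAJB1, a co-chaperone of the heat shock response, ran from 68.2 to 160 CPM in ICM (median 86.3) and stood at 4368, 3864, 2051, 3565 and 5576 CPM in HYPO AL to AP. It had the smallest p of all genes tested (log2 fold change 5.29, SE 0.29, adjusted p = 2.61e-08). HSPH1, an exchange factor for HSP70, ran from 136 to 539 CPM in ICM (median 205) and from 4989 to 9850 CPM in HYPO, median 5397 (log2 fold change 4.44, SE 0.35, adjusted p = 1.05e-06). BAG3, which links chaperones to autophagy, ran from 0 to 59.5 CPM in ICM (median 0.704) and from 3672 to 9220 CPM in HYPO, median 3782 (log2 fold change 7.996, SE 1.31, adjusted p = 0.00208).

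HSPA5, the main HSP70 chaperone of the endoplasmic reticulum, ran from 125 to 2087 CPM in ICM (median 816) and from 7340 to 20950 CPM in HYPO, median 16310 (log2 fold change 3.96, SE 0.48, adjusted p = 0.000123). The cytosolic chaperones HSPA8 and HSP90AA1 had log2 fold changes of 1.91 (SE 0.41, adjusted p = 0.0161) and 1.54 (SE 0.35, adjusted p = 0.0266). For HSPA8 the adjusted p was 0.0503 to 0.0513 without AM or AO, and that of HSP90AA1 0.0516 to 0.0725 without AA, AM, AN or AP. Outside this list, the co-chaperone DNAJA1 and the endoplasmic reticulum chaperone HSP90B1 were among the genes with the smallest p, with log2 fold changes of 2.86 (SE 0.19, adjusted p = 2.16e-07) and 2.79 (SE 0.19, adjusted p = 2.48e-07). The calls of HSPA8 and HSP90AA1 were lost within the lower-numbered pools and within the higher-numbered pools. The call of HSP90AA1 was lost without scaling factors.

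The immediate early genes FOS, IER2, JUNB and ZFP36 did not pass, with log2 fold changes of 0.27 (SE 0.78, adjusted p = 0.91), -0.36 (SE 1.19, adjusted p = 0.922), 1.45 (SE 1.45, adjusted p = 0.642) and 0.05 (SE 1.35, adjusted p = 0.992). The summed level of the stress list was 2503 to 3862 CPM in ICM and 1838 to 4100 CPM in EB TE, against 26790 to 41530 CPM in LB HYPO, 13120 to 32760 CPM in LB EPI and 10140 to 11900 CPM in Sph HYPO. It was 3756 to 8590 CPM in the epiblast of spherical embryos (Sph EPI). Every LB HYPO, LB EPI and Sph HYPO sum was above both EB groups, while Sph EPI overlapped both. The part of isolation in the genes higher in HYPO was not tested.

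MYC, a growth-promoting transcription factor, was the call among 30 cell cycle genes (3.33%, against 2.47% over all genes). It ran from 0 to 3.6 CPM in ICM (median 0), with counts in AF alone, and stood at 230.2, 335, 237, 139.8 and 450.1 CPM in HYPO AL to AP. Every HYPO sum exceeded AF (log2 fold change 8.87, SE 1.44, adjusted p = 0.00194). CDK1 and TOP2A, which mark dividing cells, had log2 fold changes of 0.24 (SE 0.27, adjusted p = 0.705) and 0.58 (SE 0.44, adjusted p = 0.501).

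Of 46 genes listed under respiratory chain and TCA cycle, 2 (4.35%) were called higher in ICM and 0 higher in HYPO. The median fold change of the list was -0.41, and 9 members were positive. The list took in IDH1, whose cytosolic enzyme is not part of the mitochondrial TCA cycle. IDH1, the cytosolic isocitrate dehydrogenase, ran from 1257 to 2335 CPM in ICM (median 1764) and stood at 381, 808, 479, 772 and 418 CPM in HYPO AL to AP. The groups did not overlap (log2 fold change -1.65, SE 0.25, adjusted p = 0.00127). COX4I1, a cytochrome c oxidase subunit, ran from 961 to 1422 CPM in ICM (median 1072) and from 469 to 658 CPM in HYPO, median 552 (log2 fold change -1.06, SE 0.20, adjusted p = 0.00721). For the respiratory list, DESeq2 gave 0 calls higher in HYPO and 9 higher in ICM, and limma gave 0 and 10 on log2(TPM + 1) and 0 and 8 on log2(TPM + 0.1). Without scaling factors 6 members were called higher in ICM. The call of COX4I1 was lost within the lower-numbered pools. In LB EPI the medians of IDH1 and COX4I1 were 644 and 562 CPM, so their lower levels were not particular to HYPO.

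Of 32 glucose genes, the glycolytic enzymes PKM and GAPDH were called, both higher in HYPO. PKM ran from 234 to 555 CPM in ICM (median 412) and stood at 1394, 891, 739.7, 928 and 914 CPM in HYPO AL to AP. All HYPO sums were higher (log2 fold change 1.331, SE 0.26, adjusted p = 0.00826). GAPDH ran from 10.3 to 139 CPM in ICM (median 63.7) and from 210 to 484 CPM in HYPO, median 418 (log2 fold change 2.59, SE 0.58, adjusted p = 0.0225), and its adjusted p was 0.0504 to 0.0574 without AG, AL, AM or AN. The call of GAPDH was lost with sums of at least 2 cells, with limma on log2(TPM + 0.1) and within the lower-numbered pools. In LB EPI the medians of PKM and GAPDH were 1443 and 408 CPM, so their higher levels were not particular to HYPO.

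Of 33 lipid genes, 1 was called in each direction. SOAT1, which esterifies cholesterol, ran from 1377 to 2517 CPM in ICM (median 2023) and stood at 253, 215, 34.2, 213 and 314 CPM in HYPO AL to AP. HYPO AN was the lowest, and all HYPO sums lay below ICM (log2 fold change -3.25, SE 0.41, adjusted p = 0.000207). ACSL3, an acyl-CoA synthetase of lipid droplets, ran from 20.2 to 185 CPM in ICM (median 106) and from 348 to 838 CPM in HYPO, median 452 (log2 fold change 2.35, SE 0.49, adjusted p = 0.0143), and its adjusted p was 0.0534 without AL. The call of ACSL3 was lost in a single model over all 7 lineages, with limma on log2(TPM + 0.1) and within the lower-numbered pools. For the lipid list, DESeq2 gave 2 calls higher in HYPO and 3 higher in ICM, and limma gave 4 and 3 on log2(TPM + 1) and 2 and 4 on log2(TPM + 0.1).

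Of 45 DNA methylation and chromatin genes, 0 were called by edgeR in either direction. Of them 9 had an unadjusted p under 0.05, DESeq2 called 4, and limma called 2 on log2(TPM + 1) and 1 on log2(TPM + 0.1). HDAC2, a histone deacetylase, ran from 959.5 to 1891 CPM in ICM (median 1473) and from 664 to 1303 CPM in HYPO, median 777 (log2 fold change -0.78, SE 0.23, adjusted p = 0.086). UHRF1, which recruits the maintenance DNA methyltransferase, had 1 count in ICM and 240 in HYPO (adjusted p = 0.116, edgeR).

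Further genes were taken by fitted fold change among called genes with a symbol, a count in every HYPO sum and no overlap with ICM. The fitted values of genes with no ICM count depend on the prior count, so no order is given, and entries without a symbol were not taken. CLU, the secreted chaperone clusterin, had no ICM count and stood at 410.1, 209.7, 169, 314 and 53.2 CPM in HYPO AL to AP, at least 4517-fold higher (adjusted p = 6.49e-05, edgeR). ARRDC3, an arrestin-domain protein, had no ICM count and stood at 359, 42.2, 35.8, 52.4 and 141 CPM, at least 1124-fold higher (adjusted p = 0.000683, edgeR). LB EPI held both as well, with medians of 677 and 68.3 CPM.

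HABP2, a serine protease that binds hyaluronan, had 1 count in ICM and 9922 in HYPO, a ratio of 9082 (95% counting interval 1630 to 358800) with an adjusted p of 9.38e-07 in edgeR. It ran from 134 to 333 CPM in HYPO (median 178), had a median of 167 CPM in Sph HYPO, and reached 0.161 CPM in LB EPI. LTA4H, a leukotriene-forming hydrolase, had 1 count in ICM and 5734 in HYPO, a ratio of 5249 (95% counting interval 942 to 207300). FGL2, a fibrinogen-like protein, had 3 counts in ICM and 4648 in HYPO, a ratio of 1418 (95% counting interval 485 to 6879).

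CPN1, a plasma carboxypeptidase subunit, and CASS4, a focal adhesion scaffold, had no ICM count. By group totals they were at least 1207-fold and 727.1-fold higher in HYPO. Over the HYPO sums CPN1 ran from 2.73 to 90.1 CPM (median 76.1) and CASS4 from 0.56 in AP to 189 CPM in AL (median 36). KCNE3, a potassium channel subunit, and UPK1B, an epithelial tetraspanin, were at least 577.3-fold and 493.1-fold higher, also with no ICM count. UPK1B and LTA4H were found in all LB EPI sums, from 35.5 to 124 and from 33.3 to 153 CPM. The call of CASS4 was lost with limma on log2(TPM + 1). The call of KCNE3 was lost within the lower-numbered pools.

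On the ICM side LIPH, SHF and the pluripotency-list gene SPIC were among those taken in the same way. LIPH, a phospholipase that forms lysophosphatidic acid, ran from 61.7 to 162 CPM in ICM (median 124) and had no count in any HYPO sum, at least 2326-fold lower in HYPO (adjusted p = 5.79e-05, edgeR). It was at 0 in LB EPI and Sph HYPO as well. SHF, a signalling adaptor, ran from 22.4 to 173 CPM in ICM (median 73.8) and had no HYPO count, at least 1200-fold lower (adjusted p = 0.000448, edgeR).

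ERBB4, a receptor tyrosine kinase, had 5727 counts in ICM and 1 in HYPO, a ratio of 6257 (95% counting interval 1122 to 247200). C1QA, a complement subunit, had 2685 counts in ICM and 1 in HYPO (adjusted p = 0.000583, edgeR). RUNX1T1, a transcriptional corepressor, ran from 148 to 391 CPM in ICM (median 280) and from 0 to 4.6 CPM in HYPO, median 0.041 (log2 fold change -7.87, SE 1.21, adjusted p = 0.00128).

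The solute carrier SLC35E4, the sialyltransferase ST6GALNAC1 and the endosome adaptor RAB11FIP5 had no HYPO count. By group totals they were at least 675.5-fold, 536.8-fold and 238.2-fold lower in HYPO. Over the ICM sums they ran from 6.87 to 74, from 0.811 to 55.6 and from 3.4 to 81.5 CPM. The adjusted p of RAB11FIP5 was 0.0176 in edgeR, and 0.0518 without AM. The calls of SLC35E4, ST6GALNAC1 and RAB11FIP5 were lost within the lower-numbered pools. The calls of ST6GALNAC1 and RAB11FIP5 were lost with limma on log2(TPM + 1) and with limma on log2(TPM + 0.1). The call of RAB11FIP5 was lost with sums of at least 2 cells. By smallest p the ICM side also held BAD and GPD1L. BAD, a cell death promoter of the BCL2 family, ran from 276 to 601 CPM in ICM (median 393) and from 6.81 to 13.7 CPM in HYPO, median 9.59 (log2 fold change -5.39, SE 0.42, adjusted p = 9.38e-07). GPD1L, an enzyme like glycerol phosphate dehydrogenase, ran from 5025 to 9849 CPM in ICM (median 7232) and from 563 to 1964 CPM in HYPO, median 1294 (log2 fold change -2.44, SE 0.28, adjusted p = 8.21e-05).

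Of the 65 called genes followed by the naming rule, 17 were called under all 23 alternatives, among them BAD, CLU, HABP2, LIPH, SPIC, DNAJB1, SOAT1 and COL4A2.

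Markers of other cell types were measured beside these results. Of 15 trophectoderm markers, KRT8 was called higher in HYPO and TFAP2C higher in ICM. For this list, DESeq2 gave 2 calls higher in HYPO and 1 higher in ICM. With limma there were 3 and 1 on log2(TPM + 1) and 3 and 2 on log2(TPM + 0.1). Their summed level was 1288 to 3021 CPM in ICM and 1761 to 3763 CPM in HYPO. In EB TE it was 612 to 61510 CPM (median 46610), so the lowest EB TE sum lay below every ICM and HYPO sum. The keratin gene KRT18 had medians of 34.3 and 248 CPM (log2 fold change 1.97, SE 0.57, adjusted p = 0.0848, edgeR). GATA2 and GATA3, factors of trophectoderm, reached at most 8.2 and 17.5 CPM in HYPO, against medians of 219.6 and 187 CPM in EB TE.

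Of 6 blood and endothelial markers, 0 were called by edgeR. Of them 4 had an unadjusted p under 0.05, DESeq2 called 0, and limma called 0 on log2(TPM + 1) and 0 on log2(TPM + 0.1). Their summed level was 5.18 to 75.4 CPM in ICM and 0 to 14.1 CPM in HYPO. The red cell enzyme ALAS2 had 0 counts in ICM and 124 in HYPO (adjusted p = 0.134), and LYZ, the lysozyme of white cells, had 375 counts in ICM and 0 in HYPO (adjusted p = 0.157). Of 6 oocyte genes 0 were called by edgeR. Of these 5 had an unadjusted p under 0.05, DESeq2 called 0, and limma called 0 on log2(TPM + 1) and 0 on log2(TPM + 0.1). The zona pellucida gene ZP2 had 0 counts in ICM and 340 in HYPO (adjusted p = 0.145), all in AO, and the importin gene KPNA7 had 193 counts in ICM and 0 in HYPO (adjusted p = 0.155).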

How the data were processed

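Smart-seq2 libraries of single pig blastocyst cells were analysed. Per the labels and the study's methods, the authors aligned reads to Sscrofa10.2 with HISAT2 2.1.0, counted reads per Ensembl gene with HTSeq, added 16 entries, and removed cells of low quality. The deposited counts are raw read counts per gene and cell, and the deposited TPM values were calculated by the authors. They compared single cells, whereas here counts were summed per embryo and group. Genes with TPM over 1 in at least 3 of 220 cells and a count in the 12 sums were tested with edgeR 4.0.16 in R 4.3.3 (quasi-likelihood, TMM), with Benjamini-Hochberg adjustment over 13437 genes. limma 3.58.1 on TPM and DESeq2 1.42.0 were alternatives.

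Of 22840 entries, 11437 had a symbol. In data simulated for 13100 genes, the changed genes were drawn from the more abundant genes only, so recovery of low-count genes was not measured. Of 100 genes changed 16-fold 41 were recovered, and of 100 changed 4-fold 11, each with the right sign. In the same run 7 unchanged genes were called. Total counts per sum ran from 1678233 to 29496266, and 3 sums held 1 cell. Counting intervals (95%) and floors (3 counts) cover counting error only. Both use counts added up over the sums of a group, so they are not bounds for each sum.

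Genes were named as the 4 markers, the 10 called genes in each direction with the largest fold change among those with no overlap and a count in every sum of the higher group, the 5 with the smallest p in each direction, and up to 4 called members of each list in each direction (where none was called, the 2 with the smallest p). Genes named beside these were chosen after their values were seen. A few named genes are not reported here, but stay in the counts of calls and list medians. The members and lists were chosen with earlier results of these data known. Alternatives were other scaling, filters, tools, sums, pools and each embryo left out. No sequence was used here.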

Additional observations from a re-analysis of the deposited data

Results flagged for a closer look

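Within the ICM or HYPO sums, 22 values stood far from the others of their group by Dixon's criterion, among 119 groups of sums examined. Chance flags about 1 in 20 groups of normally distributed values, a rate that cannot be applied to groups in which all sums but 1 are at 0. HYPO AO held 7 of them, AL 4, AP 2 and AN 2. AO was also the deepest sum, with 16 cells and 29496266 counts.

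In some groups a single sum held all or nearly all of the counts. In ICM these were HABP2 in AG (0.141 CPM), LTA4H in AC (0.0916 CPM), FGL2 in AG (0.422 CPM), UHRF1 in AF (0.0901 CPM), MYC in AF (3.6 CPM) and LYZ in AE (67.1 CPM), with the other 6 ICM sums at 0. In HYPO AO they were ERBB4, C1QA and KLF17 (each 0.0393 CPM) and ZP2 (13.4 CPM), with the other 4 HYPO sums at 0. AO also held RUNX1T1 at 4.6 CPM, CTSL at 20.8 CPM and CHRD at 0.354 CPM, above every other HYPO sum. ITGA4 was at 0.547 CPM in HYPO AL with the others at 0, and SPIC was at 0.224 CPM in HYPO AN. HABP2, LTA4H and UHRF1 had 1 count in all of ICM, and ERBB4, C1QA, KLF17 and ITGA4 had 1 in all of HYPO. A single count always falls in 1 sum, so these flags were fixed in advance and do not mark an unusual sum.

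Low values were CPN1 in HYPO AL (2.73 CPM, others 40.9 to 90.1), LTA4H in HYPO AL (12.6 CPM, others 67.7 to 123) and KRT8 in HYPO AL (1238 CPM, others 1932 to 2281). SLC39A8 was low in HYPO AP (0 CPM, others 54.7 to 129). SOAT1 was low in HYPO AN (34.2 CPM, others 213 to 314). CHRD was low in ICM AA (0 CPM, others 14.9 to 105). HDAC2 was high in HYPO AP (1303 CPM, others 664 to 799.5).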

How the results depend on the processing

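Against 332 genes called, 1111 were called by DESeq2, 594 by limma on log2(TPM + 1), 573 by limma on log2(TPM + 0.1), 218 within the lower-numbered pools and 94 within the higher-numbered pools, where fewer cells entered. Leaving out 1 embryo sum gave 212 (without HYPO AM) to 325 (without ICM AD). The other alternatives (no TMM, no filter, filterByExpr, sums of at least 2 cells, all 7 lineages, X and Y left out) gave 287 to 376. The share of calls higher in HYPO was 56%, against 45.7% with limma on log2(TPM + 0.1) and 68.3% within the lower-numbered pools. Without TMM the median of all genes moved from 0.04 to -0.098, and 160 calls were higher in HYPO.

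For the named genes, 652 of the values under other alternatives and 758 of those with 1 sum left out kept their direction and their side of the threshold, while 122 and 102 lost significance. Both values that changed sign were of genes not called: HNF4A (-0.42) was 0.064 without ICM AD, and UHRF1 (6.12) was -1.21 within the higher-numbered pools. The cause was not tested. A fit with a sex term was not run because no Y-linked gene was matched. The study's table of sexes gives counts per group and does not name the embryos. No paired analysis was possible because no embryo gave cells to both groups. Sums of 1 cell and genes with few counts limit what this depth can show.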

Other observations

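Gene families were grouped by symbol after their values were seen. Some of their members, such as DNAJB1, HSPA5, HSPA8 and HSP90AA1, are also in the stress list above, so their calls are counted there too. Among chaperone families, 4 of 30 DNAJ co-chaperones and 3 of 7 HSPA genes were called higher in HYPO. So were 3 of 3 HSP90 genes and 3 of 5 disulfide isomerases of the PDIA series. In each of these families edgeR called 0 higher in ICM. DESeq2 called 6 DNAJ genes higher in HYPO and 2 higher in ICM. Over all genes tested, 1.38% were called higher in HYPO and 1.09% higher in ICM. Of 7 CCT chaperonin genes, 1 (CCT8) was called higher in HYPO, and that call was lost in 10 of 12 runs with 1 sum left out. Of 34 ribosomal proteins, 21 proteasome subunits and 28 mitochondrial carriers grouped in the same way, edgeR called 0 in either direction. The DNAJ count was 2 without AC, AE, AF, AG, AL, AM or AN, and the HSPA count was 1 without AM or AO. DNAJB1, DNAJA1 and HSPA5 were called with any sum left out. Within the higher-numbered pools 1 HSPA and 1 HSP90 genes were called, and in a single model over all 7 lineages 0 disulfide isomerases were. The lectin chaperones of the endoplasmic reticulum CANX and CALR had log2 fold changes of 1.69 (SE 0.19, adjusted p = 5.76e-05) and 1.61 (SE 0.27, adjusted p = 0.00309) by edgeR. CANX ran from 817 to 1355 CPM in ICM (median 1008) and from 2871 to 4137 CPM in HYPO (median 3581), with a median of 1051 CPM in LB EPI. SLC3A2, the shared heavy chain of amino acid exchangers, rose from a median of 381 to 1164 CPM (log2 fold change 1.54, SE 0.23, adjusted p = 0.0012), against 372 CPM in LB EPI. The call of CANX was lost in a single model over all 7 lineages. The call of CALR was lost within the lower-numbered pools. The call of SLC3A2 was lost within the higher-numbered pools.

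Of 13 genes grouped by symbol as piRNA and germ cell factors, 3 were called higher in ICM and 0 higher in HYPO. Over all genes tested, 1.09% were called higher in ICM. The group took in the helicase gene MOV10 by its symbol alone. DESeq2 called 2 members higher in HYPO and 3 higher in ICM. HENMT1, which methylates piRNA ends, ran from 2329 to 7729 CPM in ICM (median 4213) and from 153 to 1278 CPM in HYPO, median 411 (log2 fold change -2.82, SE 0.46, adjusted p = 0.00185). The helicase gene MOV10 and ASZ1, a germ cell factor of the piRNA pathway, had log2 fold changes of -2.54 (SE 0.48, adjusted p = 0.00733) and -3.14 (SE 0.70, adjusted p = 0.0223) by edgeR. The adjusted p of ASZ1 was 0.0582 to 0.0613 without AM or AN. In LB EPI the median of MOV10 was 1245 CPM, above its ICM median of 541 CPM. The calls of HENMT1, MOV10 and ASZ1 were lost within the higher-numbered pools. The calls of MOV10 and ASZ1 were lost in a single model over all 7 lineages. The call of MOV10 was lost within the lower-numbered pools. The call of ASZ1 was lost with sums of at least 2 cells.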
